A study of Mus musculus with 8 samples.

Results

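TRAV7 is a family of variable (V) gene segments of the mouse T-cell receptor (TCR) alpha locus, called V alpha 1 in the older naming. Its members were chosen by the name of the V segment that Cell Ranger gave each alpha chain, TRAV7 followed by no letter, D or N. The family itself was chosen with earlier results of these data known, among them its share of cells and clonotypes in each library, so these shares are a description and support nothing. Of 2298 brain cells with an alpha chain, 283 had a TRAV7 chain. These cells carried 285 TRAV7 chains, since 2 cells had 2 of them, and fell into 174 of the 1377 clonotypes with an alpha chain. The chains came from male B6 mice injured by controlled cortical impact, a model of traumatic brain injury (TBI). Young mice were 13 to 15 weeks old at TBI and aged mice 80 to 82 weeks, and both received 300 µg of aCD49d antibody, which blocks the integrin alpha 4 chain that leukocytes use to leave the blood, or its isotype control, repeated every 2 weeks. CD45+ brain cells were collected 2 months after TBI, and the cells of 2 mice were pooled into each library. The 4 libraries are YTBI_Isotype and YTBI_aCD49d from young mice and ATBI_Isotype and ATBI_aCD49d from aged mice. As each group is 1 library, every interval below covers counting error only, and age, treatment and the particular mice cannot be told apart. Cells of a clone are not independent, so intervals of shares of cells are too narrow.

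An alpha chain is made in the thymus when 1 V segment is joined to 1 of many J segments, and bases are trimmed from and added to the ends before they meet. The join encodes complementarity-determining region 3 (CDR3), the loop that mostly touches the peptide, while CDR1 and CDR2 are written in the V segment and mostly touch the MHC molecule that presents it. Large stretches of the mouse alpha V cluster were duplicated in evolution, and a letter D or N in a segment name marks a copy in a duplicated stretch. Primary joins tend to use J segments near the V cluster, and later rounds of joining on the same chromosome replace them with more distant ones. Cells with the same alpha and beta joins are taken to descend from a common cell and form a clone, or clonotype. Clonotypes were counted here as the authors' deposit separates them.

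Alpha chain recovery set the denominators. An alpha chain was found in 217 of 262 cells of YTBI_Isotype, 452 of 577 of YTBI_aCD49d, 692 of 1024 of ATBI_Isotype and 937 of 1123 of ATBI_aCD49d. The share of cells with an alpha chain thus lay between 67.6% and 83.4%, lowest in ATBI_Isotype. A TRAV7 chain rested on a median of 4, 4, 2 and 5 unique molecular identifiers (UMIs) in the same order of libraries, and other alpha chains on 4, 3, 3 and 4. Among all libraries 1 cell barcode occurred in 2 of them, and it held no TRAV7 chain. Because no transcriptome was analysed here, CD4+ and CD8+ T cells were not separated.

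The germline bases show how alike the members are. The annotation of GRCm38, the assembly of mm10, places 14 TRAV7 segments on the plus strand of chromosome 14, from TRAV7-1 (chr14:52654817-52655328) to TRAV7-6 (chr14:53716716-53717291), a span of 1062 kb upstream of the J segments. Of these, 13 are listed by GENCODE and TRAV7D-6 (chr14:53020459-53020991) by RefSeq alone. Each has a leader exon and a V exon, and the last 264 bases of the V exon before the CDR3 were compared. Segments with the same final number differed by 0 to 13 of these bases over 11 pairs, with a median of 2, and segments with different numbers by 14 to 47 over 80 pairs. The chains of the brain cells used 11 of the 14 segments. Their V regions equalled the segment they were assigned to in 284 of 285 chains, the exception being 1 TRAV7-6 chain. The CDR1 of each is given below as read in the chains, in capitals where a base differs from the most frequent base at that position over the 11 segments, ties going to the letter that comes earlier in the alphabet, because this loop separates the numbered members.
TRAV7-1: gatcgtaAttctcagtaT
TRAV7D-2: gatcgtaAtGTtGaCtac
TRAV7-3 and TRAV7D-3: gaCAgtGcttctcagtaT
TRAV7-4 and TRAV7D-4: gatcgtaAttTtcagtac
TRAV7N-4: gatcgtaAttTtcagtaT
TRAV7-5: gatGgtacttctAaCAac
TRAV7D-5: gatcgtTcttctGaCAac
TRAV7-6: gaCAgtGcttctcagtCc
TRAV7N-6: AaCAgtGcttctcagtCc

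The 3 segments that no chain was assigned to each have a twin with an identical V region. TRAV7-2 (chr14:53390635-53391142) equals TRAV7D-2 (chr14:52683964-52684472), TRAV7N-5 (chr14:53146919-53147448) equals TRAV7D-5 (chr14:52835858-52836387), and TRAV7D-6 equals TRAV7N-6 (chr14:53324632-53325208) over all 264 bases. Every chain of these pairs was assigned to 1 twin, namely TRAV7D-2, TRAV7D-5 or TRAV7N-6. For these segments, which hold 155 of the 285 chains, the letter in the name is therefore not given by the V region, and the final number is the firmer label. Within a clonotype the assignment did not vary: in each of the 19 clonotype and CDR3 pairs seen in at least 2 cells, every cell had the same segment.

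The most repeated TRAV7 receptor was a CDR3 encoded by 4 different alpha joins, which are shown here because their bases carry the comparison. They join TRAV7D-2 to TRAJ33, encode the same 12 residues, and occurred in 5 clonotypes and 13 cells, 8 of YTBI_aCD49d and 5 of ATBI_Isotype. In the alpha lines, capitals mark bases that match neither the germline V end nor the germline J start. In the beta lines, capitals mark the 27 bases that encode the 9 residues with which all of these beta CDR3s end. Unlike in the alpha lines, they do not mark bases outside the germline. How many of the 27 bases come from germline beta segments was not counted.
YTBI_aCD49d clonotype 4, alpha: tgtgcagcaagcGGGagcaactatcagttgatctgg
YTBI_aCD49d clonotype 4, beta: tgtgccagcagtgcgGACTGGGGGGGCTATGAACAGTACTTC
YTBI_aCD49d clonotype 23, alpha: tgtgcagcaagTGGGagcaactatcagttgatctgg
YTBI_aCD49d clonotype 23, beta: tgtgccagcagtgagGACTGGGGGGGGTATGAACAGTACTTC
ATBI_Isotype clonotype 37, alpha: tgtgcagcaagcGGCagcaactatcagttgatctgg
ATBI_Isotype clonotype 37, beta: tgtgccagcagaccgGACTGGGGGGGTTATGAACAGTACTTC
ATBI_Isotype clonotypes 227 and 286, alpha: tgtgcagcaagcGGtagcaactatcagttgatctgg
ATBI_Isotype clonotypes 227 and 286, beta: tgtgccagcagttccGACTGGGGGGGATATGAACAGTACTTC

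Each of the 4 alpha joins was paired with its own beta join, and the alphas differed from each other by at most 2 bases. The betas used 3 V segments, TRBV15 in clonotypes 4, 227 and 286, TRBV13-1 in clonotype 23 and TRBV19 in clonotype 37. All used TRBJ2-7 and had a CDR3 of 14 residues, of which the last 9 were shared. Clonotypes 227 and 286 of ATBI_Isotype, with 1 cell each, had the same bases in both chains and were separated in the deposited table. Clonotypes 37 and 227 each had another beta chain beside the one shown. Clonotype 4 held 6 cells, clonotype 23 held 2 and clonotype 37 held 3, so that all 3 of the remaining joins were found in more than 1 cell. None of the 13 cells belonged to YTBI_Isotype or ATBI_aCD49d, of which 32 and 65 cells had a TRAV7 chain. By the limit of 3 counts, true shares of up to 9.38% and 4.62% of TRAV7 cells remain possible there. This limit treats cells of a clone as independent, and over TRAV7 clonotypes it is 10.3% and 6%.

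The pairing was also read from the side of each chain. In all libraries 5 clonotypes joined TRAV7D-2 to TRAJ33, and all 5 had this CDR3. That all 5 also had the beta ending follows from its definition, as the residues that these betas share. The ending occurred in 7 of the 1649 clonotypes with a beta chain, and the other 2 were single cells with unrelated alpha chains, TRAV13-2 with TRAJ31 in YTBI_aCD49d and TRAV12-2 with TRAJ57 in ATBI_Isotype. Beta chains with TRBJ2-7 and a CDR3 of 14 residues numbered 91. The TRAV7D-2 and TRAJ33 receptor was noticed after the values were seen, and no test was made of it. What it binds was not measured.

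Other TRAV7 receptors recurred in the same way, from different bases. TRAV7-4 joined to TRAJ33 gave the same 12 alpha residues with the same 15 residues of a TRBV5 and TRBJ2-5 beta in clonotype 19 of ATBI_aCD49d, with 6 cells, and in clonotype 205 of YTBI_aCD49d, with 1 cell. The 2 clonotypes differed by 1 base in each chain, in capitals here.
ATBI_aCD49d clonotype 19, alpha: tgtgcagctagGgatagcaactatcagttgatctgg
YTBI_aCD49d clonotype 205, alpha: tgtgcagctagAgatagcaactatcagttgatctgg
ATBI_aCD49d clonotype 19, beta: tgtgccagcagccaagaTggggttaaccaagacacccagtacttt
YTBI_aCD49d clonotype 205, beta: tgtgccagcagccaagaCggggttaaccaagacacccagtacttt

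TRAV7N-4 joined to TRAJ31 gave the same 13 alpha residues and the same 11 beta residues, with TRBV31 and TRBJ2-7, in clonotypes 10 and 91 of ATBI_Isotype, of 8 cells and 1 cell. Again each chain differed by 1 base, so that the deposited table holds them apart.
ATBI_Isotype clonotype 10, alpha: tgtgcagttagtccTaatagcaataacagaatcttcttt
ATBI_Isotype clonotype 91, alpha: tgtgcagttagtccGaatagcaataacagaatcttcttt
ATBI_Isotype clonotype 10, beta: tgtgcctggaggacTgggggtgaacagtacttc
ATBI_Isotype clonotype 91, beta: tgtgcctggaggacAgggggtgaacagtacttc

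TRAV7N-6 joined to TRAJ22 gave the same 12 alpha residues in clonotype 83 of YTBI_Isotype and clonotype 209 of YTBI_aCD49d, 1 cell each. These alphas differed by 4 bases, and their TRBV14 betas of 13 residues differed by 1 residue and 7 bases and used TRBJ2-7 and TRBJ2-5.
YTBI_Isotype clonotype 83, alpha: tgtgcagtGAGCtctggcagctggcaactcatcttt
YTBI_aCD49d clonotype 209, alpha: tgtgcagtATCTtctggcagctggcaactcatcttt
YTBI_Isotype clonotype 83, beta: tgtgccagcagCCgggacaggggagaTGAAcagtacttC
YTBI_aCD49d clonotype 209, beta: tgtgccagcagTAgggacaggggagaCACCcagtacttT

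Counted over the family, 167 distinct TRAV7 chains, by V segment, J segment and CDR3 residues, were present. Of these, 6 occurred in at least 2 clonotypes and 4 in at least 2 libraries, and 4 of the 6 were encoded by more than 1 nucleotide sequence. Among other alpha chains, 32 of 1162 occurred in at least 2 clonotypes, 14 in at least 2 libraries, and 10 of the 32 had more than 1 nucleotide sequence. The share that recurred was 3.59% for TRAV7 and 2.75% for the rest. The beta chains beside recurrent alphas were compared next. Of 11 pairs of TRAV7 clonotypes from different libraries with the same alpha CDR3 residues, 8 had betas of equal length that differed by at most 3 residues, and 6 of those 8 were pairs of the TRAV7D-2 and TRAJ33 receptor. The same held for 20 of 4183 such pairs of TRAV11, the V segment of invariant NKT cells, whose alpha chain is nearly the same in every cell, and for 3 of 49 pairs of the remaining kinds. Pairs share clonotypes and are not independent, and this comparison was chosen after the values were seen.

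TRAV7 cells were found in every library. They made up 32 of 217 cells with an alpha chain in YTBI_Isotype (14.7%, exact Clopper-Pearson 95% interval 10.3 to 20.2), 60 of 452 in YTBI_aCD49d (13.3%, 10.3 to 16.8), 126 of 692 in ATBI_Isotype (18.2%, 15.4 to 21.3) and 65 of 937 in ATBI_aCD49d (6.94%, 5.39 to 8.76). The share was highest in the aged isotype library and lowest in the aged aCD49d library, with the young libraries between. The difference between the aged libraries, isotype minus aCD49d, was 11.3 percentage points (Newcombe interval 7.93 to 14.7), and that between the young libraries 1.47 points (-4.17 to 7.67).

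That aged difference lay mostly in 1 clone. Clonotype 1 of ATBI_Isotype, the largest of its library with 109 cells, had a TRAV7N-6 chain in 71 cells, which were 56.3% of the library's TRAV7 cells and 10.3% of its cells with an alpha chain. Without this clone TRAV7 cells were 55 of 621, or 8.86% (6.74 to 11.4), and the difference between the aged libraries was 1.92 points (-0.870 to 4.87). The aged minus young difference among isotype libraries was then -5.89 points (-11.7 to -0.790), and with the clone 3.46 points (-2.65 to 8.86). Among aCD49d libraries it was -6.34 points (-10.1 to -2.84).

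Counted by clonotype, with each clone counted once, the libraries were closer together. TRAV7 clonotypes were 29 of 193 in YTBI_Isotype (15.03%, 10.3 to 20.9), 52 of 375 in YTBI_aCD49d (13.9%, 10.5 to 17.8), 43 of 343 in ATBI_Isotype (12.5%, 9.22 to 16.5) and 50 of 466 in ATBI_aCD49d (10.7%, 8.07 to 13.9). All 4 intervals overlapped. The isotype minus aCD49d differences were 1.16 points in young mice (-4.98 to 7.88) and 1.81 points in aged mice (-2.78 to 6.59). The aged minus young differences were -2.49 points with isotype (-9.20 to 3.69) and -3.14 points with aCD49d (-7.87 to 1.46). By clonotypes TRAV7 ranked 1, 2, 2 and 3 of 19 families in the 4 libraries in the same order, and by cells 1, 2, 2 and 6. Over the libraries it had 174 clonotypes, beside 168 of TRAV12, 167 of TRAV6, which ranked 1 in YTBI_aCD49d by both counts, 127 of TRAV14 and 122 of TRAV9.

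**Figure D1:**
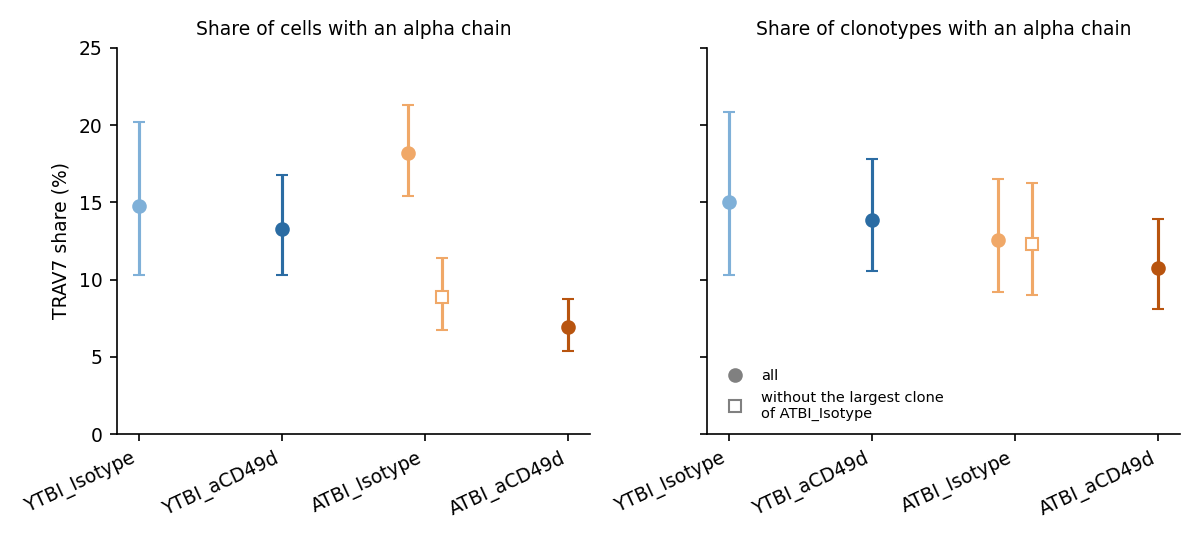
TRAV7 share of cells (left) and of clonotypes (right) with an alpha chain, in percent, in each library. Points are shares, bars exact 95% intervals for counting error, and the open square leaves out the 109-cell clone of ATBI_Isotype, which moves its share of cells from 18.2% to 8.86% and its share of clonotypes from 12.5% to 12.3%.

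The segments were used unequally. TRAV7D-2, or its twin TRAV7-2, had the most clonotypes, 8 and 12 in the young isotype and aCD49d libraries and 6 and 10 in the aged ones. In the same order of libraries, TRAV7-5 followed with 8, 8, 4 and 8, TRAV7-3 with 0, 9, 5 and 7, and TRAV7-4 with 3, 8, 3 and 6. TRAV7N-6, or its twin TRAV7D-6, had 3, 6, 2 and 4 clonotypes. TRAV7D-5, or its twin TRAV7N-5, had 0, 4, 8 and 2, and TRAV7D-3 had 2, 2, 4 and 5. The rarest were TRAV7-6 with 9 clonotypes in all, TRAV7N-4 with 8, TRAV7D-4 with 6 and TRAV7-1 with 5. No TRAV7-3 or TRAV7D-5 clonotype was found in YTBI_Isotype, whose 29 TRAV7 clonotypes allow a share of either of up to 10.3% by the limit of 3 counts. TRAV7D-5 was the leading segment of ATBI_Isotype by clonotypes, with 18.6% there (8.39 to 33.4), and had 4% in ATBI_aCD49d (0.488 to 13.7).

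By final number, which does not depend on the twins, number 5 had 42 clonotypes, number 2 had 36, numbers 3 and 4 had 34 each, number 6 had 24 and number 1 had 5. By cells the order was another, with 99 cells of number 6, of which 71 were of the largest clone. By the letter as deposited, unmarked segments had 44.8%, 50%, 37.2% and 54.0% of TRAV7 clonotypes in the 4 libraries, D segments 41.4%, 38.5%, 44.2% and 36.0%, and N segments 13.8%, 11.5%, 18.6% and 10.0%. The intervals of each letter overlapped over the 4 libraries. Counted by cells, N segments had 65.9% in ATBI_Isotype and 12.5%, 11.7% and 13.8% in YTBI_Isotype, YTBI_aCD49d and ATBI_aCD49d.

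**Figure D2:**
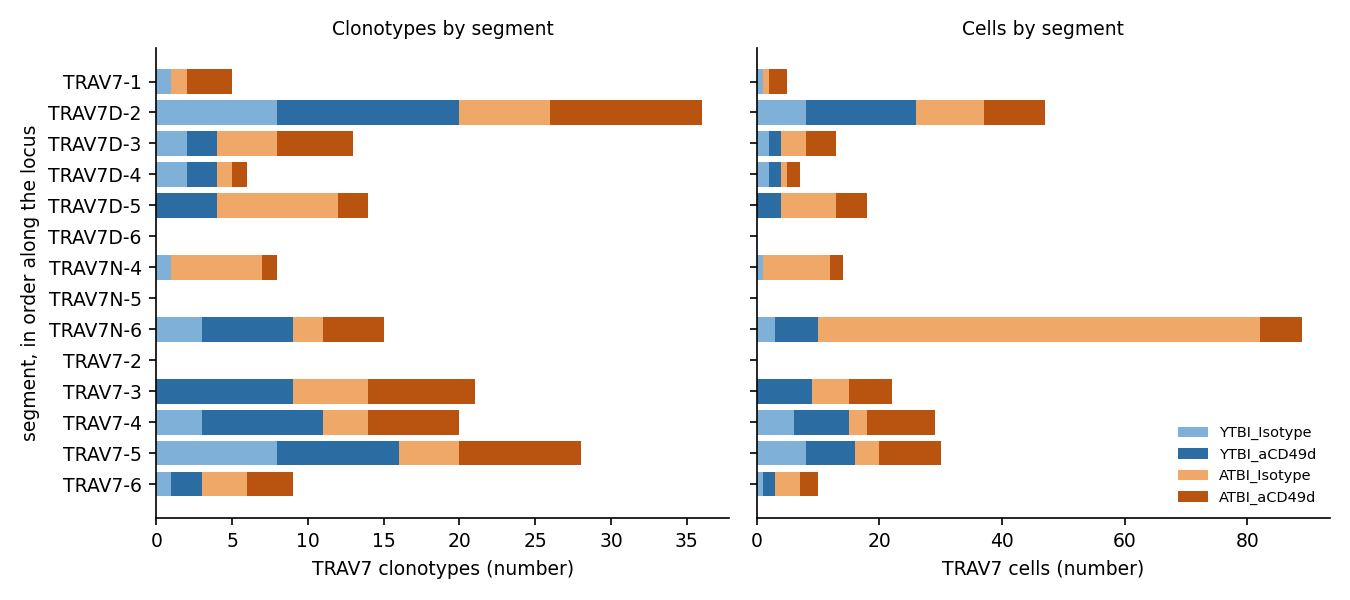
Number of TRAV7 clonotypes (left) and TRAV7 cells (right) with each of the 14 annotated segments, top to bottom in their order along the locus, with libraries stacked by colour. No chain was assigned to TRAV7D-6, TRAV7N-5 or TRAV7-2, each of which has a twin with an identical V region, and TRAV7N-6 is longest by cells, with 89, but has 15 clonotypes.

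TRAV7 chains joined 40 different TRAJ segments, of 43 that the other alpha chains used, in 122 V and J combinations over 174 distinct chains. A distinct chain was counted once per library by its V segment, J segment and CDR3 bases. The J segments with most TRAV7 clonotypes were TRAJ31 (chr14:54187895-54187951) with 15, TRAJ22 (chr14:54197248-54197307) and TRAJ9 (chr14:54209393-54209450) with 11 each, and TRAJ33 (chr14:54185358-54185414) and TRAJ26 (chr14:54194490-54194549) with 10 each. TRAJ31 was in 8.05% of distinct TRAV7 chains and 4.44% of other alpha chains, TRAJ9 in 6.32% and 2.43%, and TRAJ33 in 5.17% and 2.18%. TRAJ22 was in 6.32% and 7.04% and TRAJ26 in 5.75% and 3.94%. These 5 were picked by their number of TRAV7 clonotypes, which by itself favours a higher share in TRAV7, and no interval was computed for the differences. Of the 10 TRAJ33 clonotypes, 5 were those joined to TRAV7D-2 that are shown above. TRAJ31 was in 3, 7, 3 and 1 chains of YTBI_Isotype, YTBI_aCD49d, ATBI_Isotype and ATBI_aCD49d, and TRAJ9 in 1, 1, 4 and 5.

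The J segments nearest the V cluster, TRAJ61 to TRAJ41, made up a smaller share of TRAV7 chains than of other alpha chains in each library. Their share of distinct TRAV7 chains was 10.7%, 11.3%, 13.95% and 18% in the 4 libraries, and of other alpha chains 21.95%, 21.5%, 24.2% and 23.3%. In each library by itself the interval of the difference included 0. Over all libraries it was 24 of 174 chains (13.8%) against 273 of 1194 (22.9%), a difference of -9.07 points (-14.4 to -2.60). The middle group, TRAJ40 to TRAJ21, held 60.9% of TRAV7 chains and 51.6% of the others, a difference of 9.33 points (1.14 to 17.2). It was 21.2 points in YTBI_aCD49d (6.13 to 34.0), and 1.66 in YTBI_Isotype, 6.82 in ATBI_Isotype and 3.17 in ATBI_aCD49d, where each interval included 0. Over the 3 libraries other than YTBI_aCD49d, a setting chosen after seeing the data, it was 4.18 points (-5.72 to 13.8), and that of the nearest group was -8.48 points (-15.01 to -0.382). The distal group, TRAJ20 to TRAJ2, held 25.3% and 25.5%. The pooled values rest on libraries of different mice, and their counting intervals do not cover differences between mice.

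Within the family the J segments were also counted by V segment, and no difference between V segments was tested. TRAV7-6, the member closest to the J segments at 438 kb from the nearest, joined TRAJ61 to TRAJ41 in 5 of 9 distinct chains, and the median number of its J segments was 48. TRAV7-5, at 624 kb, had a median of 31 over 27 chains. None of the 15 chains of TRAV7N-6, the 8 of TRAV7N-4, the 6 of TRAV7D-4 or the 5 of TRAV7-1 joined this group. Their medians were 22, 21.5, 18 and 21. TRAV7D-3, at 1410 kb, had a median of 34 over 13 chains and TRAV7-3, at 711 kb, one of 27 over 21 chains, so that the order of medians did not follow the distance throughout. TRAV7D-5, or its twin, had a median of 28.5 over 14 chains. For the 3 twin pairs the V region does not give the distance, because the twins lie 304 to 707 kb apart. Of these pairs, only TRAV7D-5 and TRAV7N-5 are identical over the whole gene.

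**Figure D3:**
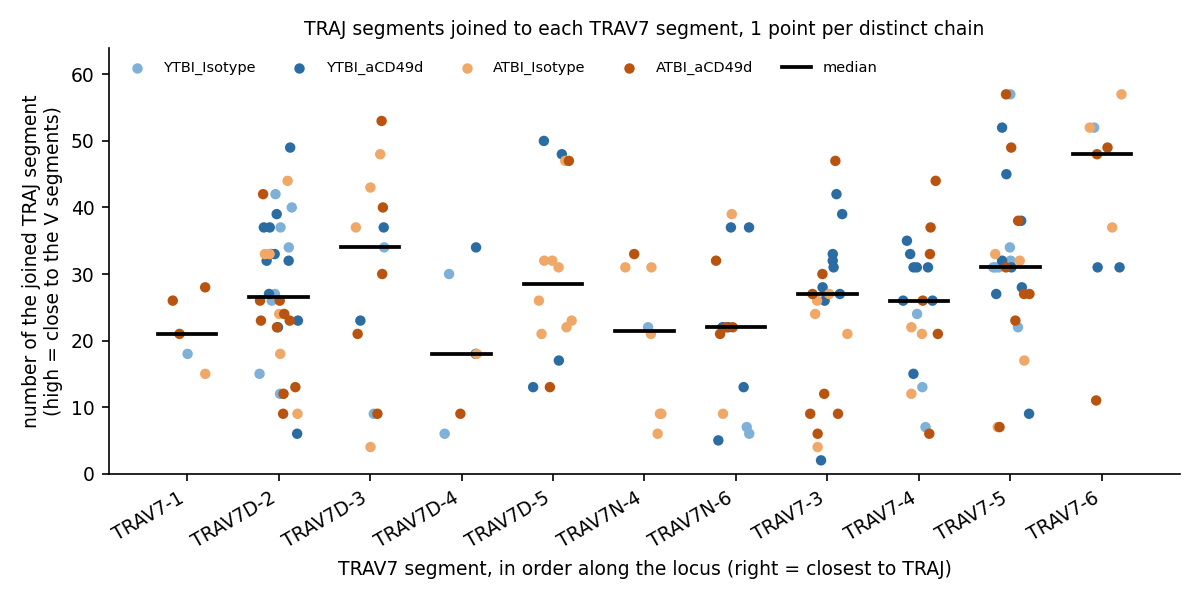
Number of the TRAJ segment joined to each TRAV7 segment, where a high number lies close to the V segments. Each point is a distinct chain coloured by library and lines are medians, and TRAV7-6 at the right has the highest, 48, while the others lie between 18 and 34.

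The CDR3 of TRAV7 chains was on average shorter than that of other alpha chains in 3 of the 4 libraries, by less than 1 residue. In distinct TRAV7 chains it had a mean of 13.5 ± 1.29 residues (SD over 28 chains) in YTBI_Isotype, 13.3 ± 1.43 (53 chains) in YTBI_aCD49d, 13.6 ± 1.20 (43 chains) in ATBI_Isotype and 13.1 ± 1.35 (50 chains) in ATBI_aCD49d. Other alpha chains had 13.8 ± 1.31, 13.7 ± 1.43, 13.5 ± 1.42 and 13.7 ± 1.35 in the same order. TRAV7 minus others was -0.618 residues in ATBI_aCD49d (normal 95% interval from the standard errors of the means, -1.01 to -0.223). The interval included 0 in YTBI_Isotype, at -0.298 residues (-0.816 to 0.220), in YTBI_aCD49d, at -0.325 (-0.739 to 0.0894), and in ATBI_Isotype, at 0.0977 (-0.294 to 0.490). These intervals cover only the spread between chains of a library. The medians were 14, 13, 14 and 13 residues for TRAV7 and 14 in each library for the others. TRAV7-3 and TRAV7D-3, which share their CDR1 and CDR2, had the shortest CDR3s, with a median of 12 residues over 21 and 13 chains.

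Bases of neither the V nor the J segment were few. Distinct TRAV7 chains had on average 2.36 ± 1.83 (SD), 2.44 ± 1.89, 3.02 ± 2.28 and 2.32 ± 2.12 such bases in the 4 libraries, and other alpha chains 2.61 ± 1.96, 2.81 ± 2.21, 2.69 ± 2.20 and 2.72 ± 2.005. None at all were found in 27 of 172 TRAV7 chains (15.7%) and 186 of 1187 others (15.7%). Bases that match a germline end by coincidence are not counted, so these numbers are lower limits of what was added.

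**Figure D4:**
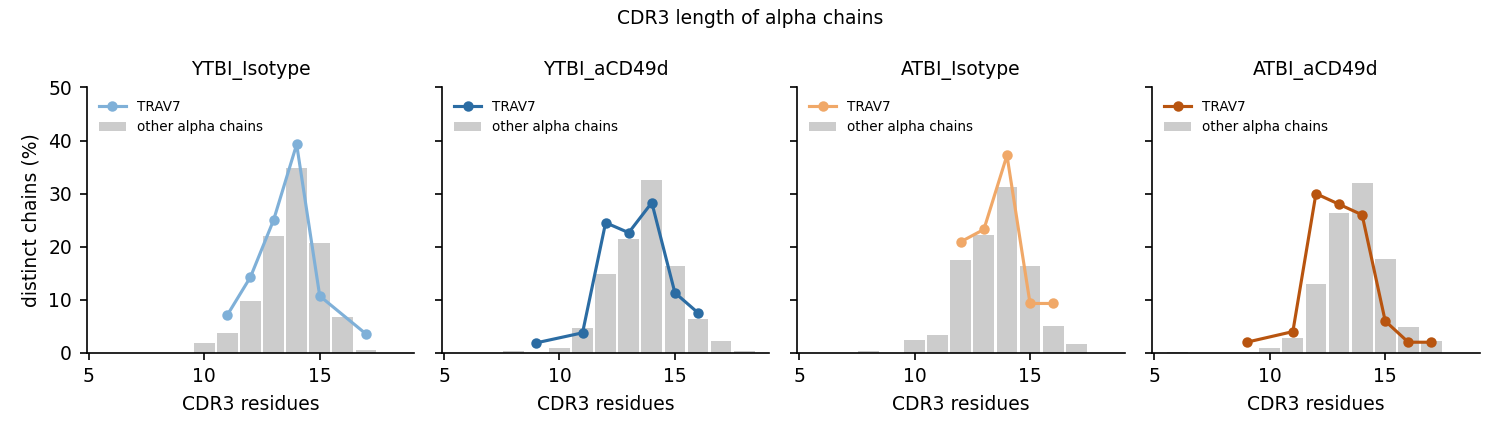
CDR3 length of distinct alpha chains in residues, with TRAV7 as coloured points and lines and other alpha chains as grey bars, in percent of each set's chains, 1 panel per library. The sets overlap, and the TRAV7 median is 13 residues in both aCD49d libraries and 14 in both isotype libraries.

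TRAV7 chains were paired with 21 of the 22 beta V segments or joint assignments that stood beside other alpha chains. The most frequent partners, over 171 TRAV7 clonotypes with a beta chain, were TRBV3 with 18, the joint assignment TRBV12-2+TRBV13-2 with 18, TRBV13-1 with 17, TRBV19 with 16 and TRBV16 with 11. TRBV3 was beside TRAV7 in 10.5% of clonotypes and beside other alpha chains in 7.13%, a difference of 3.40 points (-1.08 to 9.17). TRBV12-2+TRBV13-2 was in 10.5% and 13.1%, TRBV13-1 in 9.94% and 7.47%, TRBV19 in 9.36% and 7.13% and TRBV16 in 6.43% and 5.76%. Counted by clonotypes, the interval of the difference included 0 for each of the 5, over all libraries and in each library. By cells, where large clones weigh more, it also did for TRBV3 and TRBV16. TRBV12-2+TRBV13-2 was then -6.45 points over all libraries (-9.72 to -2.37), -5.91 in ATBI_Isotype (-9.55 to -0.426) and -12.8 in ATBI_aCD49d (-17.3 to -4.12). TRBV13-1 was 9.97 points in ATBI_aCD49d (2.50 to 20.9). TRBV19 was 22.5 points over all libraries (16.9 to 28.5) and 53.9 in ATBI_Isotype (44.2 to 62.9), the library of the largest clone.

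TRAV7 is not the alpha V segment of the invariant T cells. Invariant NKT cells use TRAV11 with TRAJ18, and MAIT cells use TRAV1 with TRAJ33. The deposited clonotype tables marked 15 of 174 TRAV7 clonotypes with evidence for the former and 46 with evidence for the latter, in each case from the beta V gene alone and in 0 of them from the alpha chain. Either mark was on 57 TRAV7 clonotypes (32.8%, 25.8 to 40.3) and on 468 of 1203 clonotypes with other alpha chains (38.9%, 36.1 to 41.7). The mark of NKT cells was on 8.62% and 20.3% of these, the latter including TRAV11, and that of MAIT cells on 26.4% and 23.0%. A second alpha chain, which T cells can keep because both chromosomes rearrange, was present in 9.38%, 16.7%, 7.94% and 7.69% of TRAV7 cells in the 4 libraries and in 7.03%, 6.38%, 2.47% and 4.70% of the others. A cell with 2 alpha chains was a member when either was TRAV7, and the part of this rule in the former shares was not tested.

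Clone sizes of the family were small except for a single clone. Of TRAV7 clonotypes, 28 of 29 in YTBI_Isotype, 46 of 52 in YTBI_aCD49d, 34 of 43 in ATBI_Isotype and 43 of 50 in ATBI_aCD49d were a single cell. The remainder, clonotypes with at least 2 cells, were 3.45%, 11.5%, 20.9% and 14% of TRAV7 clonotypes, beside 9.15%, 10.2%, 23.9% and 17.3% of clonotypes with other alpha chains. Apart from the clone of 109 cells, no TRAV7 clonotype exceeded 8 cells. Among other alpha chains, 2 clonotypes of YTBI_aCD49d, 8 of ATBI_Isotype and 10 of ATBI_aCD49d held at least 10 cells.

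Cells in clonotypes of at least 2 cells, called clonal, were 4 of 32 TRAV7 cells in YTBI_Isotype (12.5%, 3.51 to 29.0), 14 of 60 in YTBI_aCD49d (23.3%, 13.4 to 36.0), 92 of 126 in ATBI_Isotype (73.0%, 64.4 to 80.5) and 22 of 65 in ATBI_aCD49d (33.8%, 22.6 to 46.6). Of cells with other alpha chains 19.5%, 25.8%, 59.5% and 60.6% were clonal. TRAV7 minus others was thus -26.7 points in ATBI_aCD49d (-38.4 to -13.5) and 13.5 points in ATBI_Isotype (3.93 to 22.1). Without its largest clone the TRAV7 share in ATBI_Isotype was 38.2% (25.4 to 52.3). The other alpha chains of that library had a clone of 99 cells, and without it their clonal share was 54.1% (49.6 to 58.5). With each set short of its own largest clone, a setting chosen after seeing the data, TRAV7 minus others was -15.9 points (-29.4 to -1.14), so that the sign of the difference in ATBI_Isotype turned on these clones. Without that clone, the clonal share of TRAV7 cells in the aged libraries differed by 4.34 points (-13.7 to 22.4). In YTBI_Isotype and YTBI_aCD49d the TRAV7 share differed from that of the others by -6.96 points (-18.0 to 10.4) and -2.43 points (-13.4 to 11.0).

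Beside the 33.8% of TRAV7 in ATBI_aCD49d, the clonal share there was 59.4% for TRAV12, 83.6% for TRAV9 and 48.7% for TRAV14. Of all 18 other families, 8 had a lower clonal share there and 10 a higher one. In ATBI_Isotype it was 73.0% for TRAV7, 79.8% for TRAV12, 58.8% for TRAV9 and 64.4% for TRAV14. With the largest TRAV7 clone included, 14 of the 18 other families were lower than TRAV7 there and 4 higher. TRAV9 made up 22.8% of the cells with an alpha chain in ATBI_aCD49d and 7.37% in ATBI_Isotype, and TRAV12 11.3% and 25.7%. As with TRAV7, such shares of cells can be set by a single clone.

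**Figure D5:**
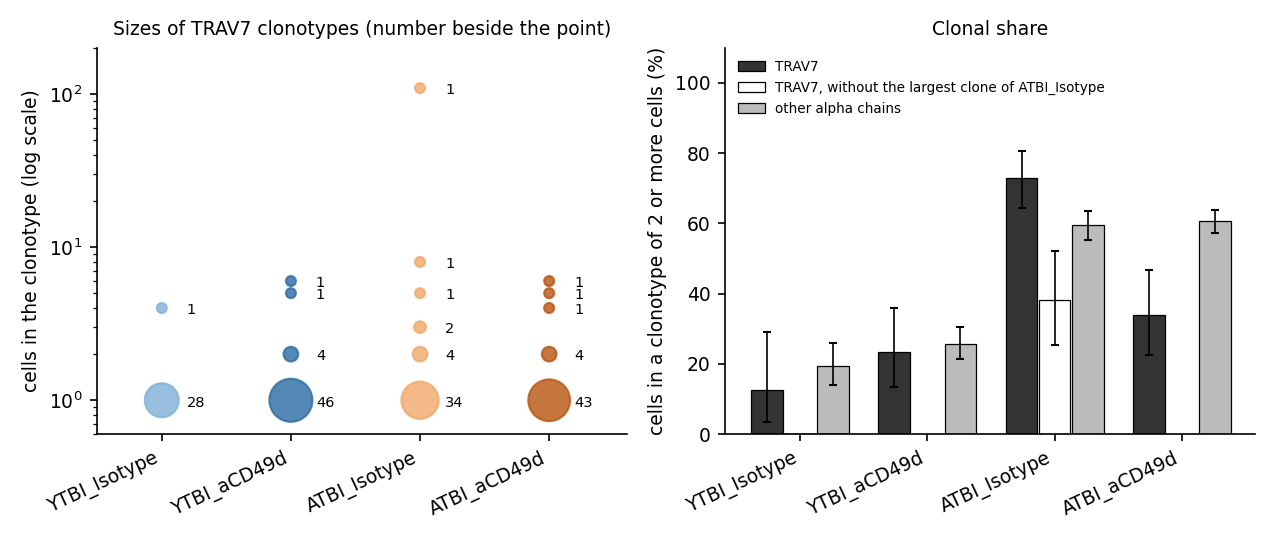
Left, sizes of TRAV7 clonotypes in cells on a log axis, with the area of a point and the number beside it giving how many clonotypes have that size, and 1 clonotype of ATBI_Isotype at 109 cells above all others at 8 cells or fewer. Right, percent of cells in a clonotype of at least 2 cells for TRAV7 (dark), TRAV7 without that clone (white) and other alpha chains (grey), with exact 95% intervals. In ATBI_Isotype TRAV7 goes from 73.0% to 38.2% when that clone is left out, while the grey bar keeps its own largest clone, of 99 cells.

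The alpha CDR3s of the largest TRAV7 clones show how their joins were made, again with capitals for bases of neither germline end.
ATBI_Isotype clonotype 1, TRAV7N-6 with TRAJ9: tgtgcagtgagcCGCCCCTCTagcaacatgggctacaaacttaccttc
ATBI_Isotype clonotype 10, TRAV7N-4 with TRAJ31: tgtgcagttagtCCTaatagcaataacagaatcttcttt
ATBI_Isotype clonotype 16, TRAV7D-2 with TRAJ44: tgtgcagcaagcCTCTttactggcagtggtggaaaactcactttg
ATBI_aCD49d clonotype 19, TRAV7-4 with TRAJ33: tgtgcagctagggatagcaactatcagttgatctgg
ATBI_aCD49d clonotype 23, TRAV7N-6 with TRAJ22: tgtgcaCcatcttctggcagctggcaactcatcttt
ATBI_aCD49d clonotype 33, TRAV7D-5 with TRAJ47: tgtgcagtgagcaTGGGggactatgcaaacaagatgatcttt
YTBI_Isotype clonotype 3, TRAV7-4 with TRAJ7: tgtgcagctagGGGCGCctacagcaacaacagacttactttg
YTBI_aCD49d clonotype 6, TRAV7-5 with TRAJ9: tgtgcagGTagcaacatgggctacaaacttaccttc

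Clonotype 1 of ATBI_Isotype had the longest CDR3 of these, 16 residues, and the most bases outside the germline ends, 9. It had 1 alpha and 1 beta nucleotide sequence in all cells in which the chains were found, and neither occurred in any other clonotype of the 4 libraries. Its beta, TRBV19 with TRBJ1-4 and a CDR3 of 15 residues, was found in 106 of the 109 cells and its alpha in 71. The alpha rested on a median of 2 UMIs, with a highest value of 12, and the beta on 4. The other TRAV7 chains of this library had a median of 3 UMIs and its other beta chains 7. The part of these depths in the size of the clone was not tested.

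The other clones were small. In ATBI_Isotype, clonotype 10 held 8 cells and clonotype 16, with a TRBV16 beta, held 5. In ATBI_aCD49d, clonotype 19 held 6 cells, clonotype 23, with TRBV13-1, held 5 and clonotype 33, with TRBV12-2, held 4. Clonotype 19 had 0 bases outside the germline ends and clonotype 23 had 1. In YTBI_aCD49d the largest were clonotype 4 with 6 cells, clonotype 6 with 5 and clonotype 23, 1 of 4 TRAV7 clonotypes with 2 cells, and clonotypes 4 and 23 are the pair with the shared TRAV7D-2 and TRAJ33 receptor shown above. In clonotype 6 the TRAV7-5 chain was found in 1 of the 5 cells, on 26 UMIs, while the TRBV13-1 beta was found in all 5. The only TRAV7 clonotype of YTBI_Isotype above 1 cell was clonotype 3, with 4 cells.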

How the data were processed

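In all, 4 single-cell TCR libraries (10x Genomics 5' v2 with immune profiling) were analysed, 1 per group, each from 2 pooled mice. Per the submitters' notes, the authors used Cell Ranger 7.2.0. The notes name mm9 and mm10, and the methods give mm10 for TCR reads. The deposited contig tables give the counts of UMIs and reads behind each chain, with its V, J and CDR3. The deposited clonotype tables give the count of cells per clonotype and its fraction of the library. All deposited chains were productive and of high confidence. The authors' later restriction to T cells by transcriptome was not repeated, since transcriptomes were not analysed here.

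The members, lists and tests were chosen with earlier results of these data known. A cell was a member when any of its alpha chains had a V segment named TRAV7, and shares were taken over cells or clonotypes with an alpha chain. No alpha chain had a joint V assignment. A clonotype of at least 2 cells was clonal. CDR3, junctions and TRAJ groups were counted over distinct chains. Named are every TRAV7 segment, the 5 TRAJ and TRBV segments with most TRAV7 clonotypes, the 3 largest TRAV7 clones of at least 2 cells in each library and any of at least 10, and the families TRAV12, TRAV9 and TRAV14. Clones tied in size were ordered by their TRAV7 cells and then by name. Recurrent receptors and TRAV6 were named after their values were seen. V and J germline ends came from GENCODE vM21, and for TRAV7D-6 from RefSeq, on GRCm38. The longest match to each end was counted, which could be done for 283 of 285 TRAV7 chains and 2127 of 2134 others. Amino acid sequences are not printed here.

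With 1 library per group no test was made. Shares have exact Clopper-Pearson 95% intervals, differences Newcombe intervals built from them, and an absent item the limit of 3 counts. Intervals, member counts and the exact thinning to equal cell numbers were tested on simulated data. Possible doublets were kept and left out in an alternative. The tools were Python 3.11.15, scipy 1.17.1, pandas 2.3.3, numpy 2.4.6 and matplotlib 3.10.9.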

Additional observations from a re-analysis of the deposited data

Results flagged for a closer look

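With clonal cells defined by at least 2 cells per clonotype, the clonal share of TRAV7 cells differed with opposite sign between the young and between the aged libraries. Isotype minus aCD49d was -10.8 percentage points between the young libraries, 12.5% against 23.3%, and 39.2 points between the aged libraries, 73.0% against 33.8%. The difference between these contrasts was not tested, as each group is 1 library. The young interval, -26.4 to 8.43, includes 0. With a minimum of 3 cells the young shares were 12.5% with isotype and 11.7% with aCD49d, so that the young sign turns, and at an equal number of 32 TRAV7 cells they were 12.5% and 15.1%. At 2 cells the aged difference falls to 4.34 points without the largest clone of ATBI_Isotype.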

How the results depend on the processing

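Of 188 alternative values for 64 results, 160 stayed within the counting interval of the value reported, 27 moved beyond it and 1, with an interval that did not include 0, changed sign. The last was the clonal share of TRAV7 minus that of other alpha chains in ATBI_Isotype, 13.5 points, which was -15.9 points with each set short of its largest clone. Part of the 160 could not move, so this count overstates how stable the results are. Leaving out the largest clone of ATBI_Isotype cannot change another library, and there were no joint V assignments to leave out. Likewise, the smallest library was thinned to its own size, and some of the largest clones left out held no TRAV7 chain. The pooled TRAJ40 to TRAJ21 difference was 4.18 points without YTBI_aCD49d, with an interval that includes 0, and that of TRAJ20 to TRAJ2 changed sign within its interval, from -0.257 to 4.30 points. No paired analysis was possible because there was only 1 library in a group. In ATBI_Isotype, leaving out the largest clone, alone or with the largest clone of each other library, moved the TRAV7 share of cells to 8.86% and the clonal share to 38.2%. Leaving out clonotypes with iNKT or MAIT evidence, which the largest clone carries by its beta gene, gave 9.48% and 40.5%. The share of cells was 12.3% over all cells with a clonotype. There, cells without a recovered alpha chain count as not TRAV7. They include cells of the largest clone, whose alpha was found in 71 of its 109 cells. The clonal share was 64.1% at the 32 TRAV7 cells of the smallest library. By cells in place of clonotypes or chains, the copies in ATBI_Isotype were 14.3% unmarked, 19.8% D and 65.9% N, the median CDR3 was 16 residues, TRAJ40 to TRAJ21 had 26.8%, TRAJ20 to TRAJ2 65.4% and TRBV19 61.7%. A minimum of 3 cells moved the clonal share to 11.7% in YTBI_aCD49d and 21.5% in ATBI_aCD49d. Without the segments that have an identical twin, an alternative chosen after seeing the data, unmarked segments had 72.2%, 86.7%, 59.3% and 79.4% in the 4 libraries, D segments 22.2%, 13.3%, 18.5% and 17.6%, and N segments 5.56%, 0%, 22.2% and 2.94%. The rise of unmarked segments follows from the construction, since every chain left out is named D or N. TRAV7 shares of clonotypes did not move under any alternative run. The smallest difference that could be detected was not measured. With 32 to 126 TRAV7 cells per library the intervals of clonal shares are wide, such as 3.51 to 29.0% in YTBI_Isotype.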
